A study of Mus musculus with 21 samples.

Results

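The lung response to bleomycin was compared between C57BL/6 and C3H/HeJ mice as a strain by treatment interaction: the change in C57BL/6 lung at 3 weeks minus the change in C3H/HeJ lung at 3 weeks, each against control lung of its own strain. The comparison rested on 8 of the 21 arrays of the series, and 9079 genes were tested. A value above 0 means that a gene went higher, or less far down, in C57BL/6 than in C3H/HeJ, and a value below 0 the reverse; it is called the response difference from here on, on the log2 scale, where 1 is a 2-fold difference.

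The 4 groups were C57BL/6 control, C57BL/6 at 3 weeks, C3H/HeJ control and C3H/HeJ at 3 weeks, of 2 inbred strains, each with 2 Affymetrix arrays. Within a group 1 array held male and 1 held female RNA; treated males had received bleomycin at 100 mg/kg and treated females at 125 mg/kg from an osmotic minipump, so that sex and dose cannot be told apart. Every array carried total RNA of the whole right lung pooled over several mice, so the spread between mice is not seen. The sources used here give neither the age of the mice nor what the control mice received. The other 13 arrays, from A/J mice, from C3H/HeJ and C57BL/6 mice at 6 weeks and from moribund C57BL/6 mice, entered the estimate of the spread and are used below only where named. Since nothing in the labels says that the 2 pools of a group were more than the male and female arms of a single experiment, the p-values measure the spread between these pools.

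Bleomycin cuts DNA strands and damages the lining of the alveoli; the injury is followed by entry of monocytes that become macrophages, by repair of the epithelium and by deposition of collagen. C57BL/6 is widely used as a strain that scars readily after bleomycin, and C3H strains are known as less prone to it. C3H/HeJ also carries a mutation that inactivates Toll-like receptor 4, the receptor for bacterial endotoxin.

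On the 8 arrays the median deposited intensity ran from 61.7 to 111.3, the Gapdh 3′/5′ ratio, a measure of RNA quality, from 0.821 to 1.064, and the correlation of any 2 arrays across genes from 0.912 to 0.981. Xist read 1123.2 to 3526.5 on the 4 female arrays and 81.6 to 286.0 on the 4 male arrays, and the Y-linked Eif2s3y read 129.4 to 312.2 on the male and 0.3 to 7.2 on the female arrays, as labelled. The alveolar markers Sftpa1 and Hopx lay at 11.96 log2 or above on every one of the 8 arrays. With 2 arrays per group the precision was limited by their number: the median standard error was 0.28 for a response difference and 0.198 for a change within a strain.

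The response difference passed an adjusted p of 0.05 in 27 genes, 0.297% of those tested: 14 were higher in the C57BL/6 response (0.154%) and 13 lower (0.143%), with sizes from 0.97 to 2.32. The higher side held Gpnmb and Apoe of the macrophage list, the complement gene C1qc, the chemokine gene Ccl9 and its receptor gene Ccr1, the matrix gene Ltbp2, the haem oxygenase gene Hmox1 and the transcription factor gene Myc. On the lower side stood the beta globin gene Hbb-b2, the collagen-associated genes Pcolce2 and Dcn, the antiviral gene Oas3, the airway gene Tppp3, the endothelial gene Cd93, Klf5 and Inmt. An unadjusted p under 0.05 was reached by 1336 genes (14.7%), 784 of them higher (8.64%) and 552 lower (6.08%). The called gene nearest the threshold had an adjusted p of 0.0477 and the nearest gene beyond it, Dph7, 0.0540 (response difference 1.09).

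The number of genes called depended on single arrays and on the scaling. Without the C57BL/6 male array at 3 weeks 5 genes were called, without the C57BL/6 male control 15, without the C57BL/6 female control 16, without the C3H/HeJ male control 7, without the C3H/HeJ female control 9 and without the C3H/HeJ male array at 3 weeks 183. Of the 27 genes 5, 11, 13, 6, 7 and 27 kept their call in these fits, in the same order. With each array scaled to 1 median in place of quantile normalization 59 genes were called, 54 higher and 5 lower (91.5% higher, against 14 of 27), at an all-gene median of 0.20 where the quantile normalized data had 0.04; with the values as deposited 2 were called, both higher, at an all-gene median of 0.16. All 27 genes kept their direction in each of 22 other settings in which they were tested. They were chosen by this difference on largely the same arrays, which made a reversal unlikely. Only 5 of the 27 had several probe sets, and the second probe set setting refitted the same values for the rest. Gpnmb alone was called in all 22, followed by Armcx4 and Pcolce2 in 21 and Inmt in 20, while Dcn and Myc were called in 7.

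In 24 of the 27 genes the C57BL/6 change was the larger in size, and in 3 the C3H/HeJ change. Within the strains 26 of the 27 passed in C57BL/6, against 13.1% of all genes, and 10 in C3H/HeJ, against 2.83%; 9 passed in both, and Scrib passed in C3H/HeJ and not in C57BL/6. The 14 genes with a higher response difference had a median change of 1.84 in C57BL/6 and 0.08 in C3H/HeJ, and the 13 with a lower response difference -1.26 and 0.15. The fitted changes had opposite signs in 14 of the 27 genes, 7 on each side. Cd93 and Pttg1 passed within each strain with opposite signs on the brightest probe set of each gene. On its second probe set Cd93 changed by 0.05 (SE 0.23) in C57BL/6 and by 0.62 in C3H/HeJ. The second probe set of Pttg1 changed by -0.26 (SE 0.24) and 0.93. The response difference had the same sign between the male and between the female pools in all 27 genes (63.1% of all genes) and exceeded 2-fold in each sex in 22 (1.65%); both sexes had entered the fit. These counts describe the 27 genes; the choice of the genes by their difference fixed much of the pattern.

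**Figure D1:**
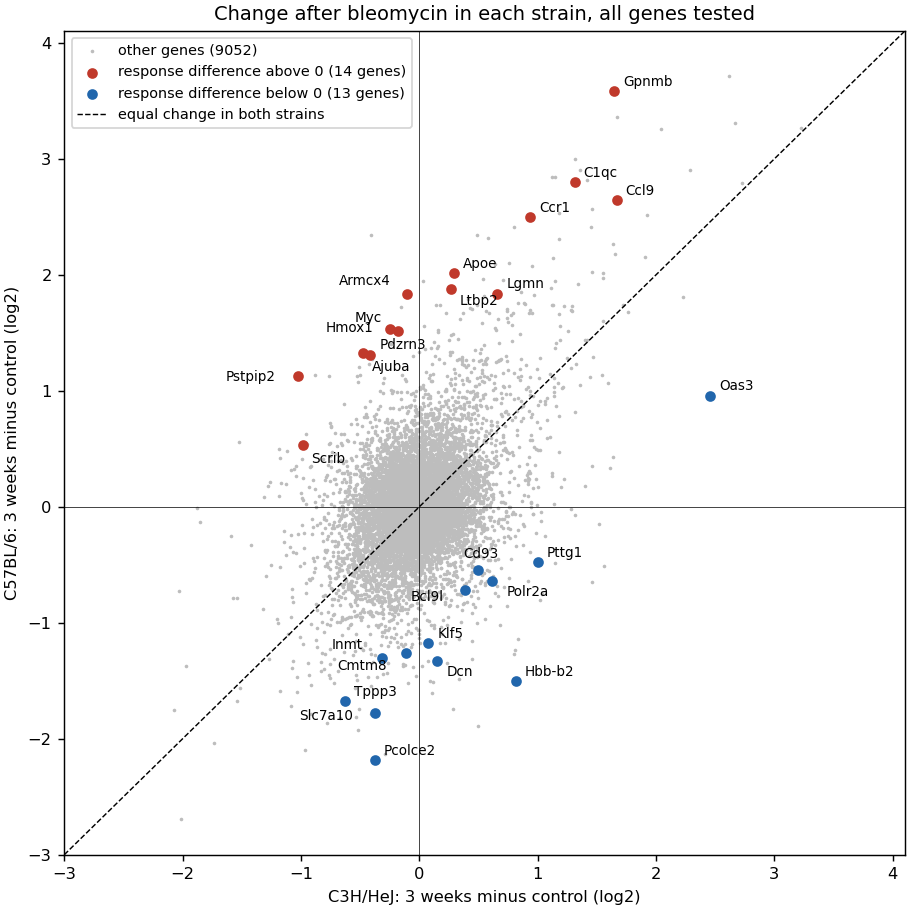
Change from control to 3 weeks after bleomycin in C3H/HeJ (horizontal, log2) and in C57BL/6 (vertical, log2) for the 9079 genes tested, each point the fitted difference of 2 against 2 arrays. The 14 genes called higher (red) lie above the dashed line of equal change and the 13 called lower (blue) below it; Gpnmb is the highest of the named points and Oas3 lies farthest to the right.

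Over all genes the fitted changes of the strains had the same direction in 59.1%. C57BL/6 had 1186 genes past the threshold (13.1%) and C3H/HeJ 257 (2.83%), and 169 passed in both, which is 14.2% of the C57BL/6 genes and 65.8% of the C3H/HeJ genes; the directions were the same in 167 of the 169, all but Cd93 and Pttg1. These sets include 26, 10 and 9 of the 27 genes, for C57BL/6, C3H/HeJ and both. Over the 1186 genes called in C57BL/6 the median change in the called direction was 0.80 there and 0.27 in C3H/HeJ, and 961 (81%) had the same direction in C3H/HeJ. Over the 257 genes called in C3H/HeJ it was 0.94 there and 0.87 in C57BL/6, with 226 (87.9%) in the same direction. Each set was chosen by its own strain's change, which sets that strain's median. The 94 genes called in A/J were chosen by the A/J change, on arrays that enter neither strain's change. The spread behind those calls was estimated from all 21 arrays, those of both strains included. Over the 94 genes the median change in the A/J direction was 1.13 in C57BL/6 and 0.93 in C3H/HeJ. C57BL/6 went further than C3H/HeJ in 65 of 94 (69.1%, against 47.6% of all genes). The 94 include 5 of the 27 genes. In genes without a call in A/J the A/J direction is uncertain, so the share of all genes is not a like baseline.

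Gpnmb and Apoe were the called genes of the macrophage list; C1qc, Ccr1, Ccl9, Lgmn and Pstpip2, which are outside that list, are described beside them, in a grouping made after the calls were seen. Gpnmb, a membrane glycoprotein of macrophages, had a response difference of 1.94 (SE 0.26, adjusted p = 0.00253). Its log2 signal in the male and the female pool was 6.44 and 6.56 in C57BL/6 controls, 10.18 and 9.99 in C57BL/6 at 3 weeks, 8.03 and 8.08 in C3H/HeJ controls and 9.79 and 9.61 in C3H/HeJ at 3 weeks. The 4 groups did not overlap: the C57BL/6 controls were the lowest of all, and C57BL/6 at 3 weeks the highest. Gpnmb rose in both strains, by 3.58 in C57BL/6 (12.0-fold) and by 1.64 in C3H/HeJ (3.13-fold), and a strain difference of -1.56 in controls became 0.38 at 3 weeks. Leaving out any of the 8 arrays gave response differences from 1.82 to 2.06.

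Apoe, which encodes a lipid carrier secreted by macrophages, read 10.26 and 10.38 in C57BL/6 controls and 10.26 and 10.30 in C3H/HeJ controls, so that the control pools of the strains overlapped. At 3 weeks it read 12.41 and 12.25 in C57BL/6 and 10.83 and 10.32 in C3H/HeJ, where only the male pool lay clear of the controls. Apoe rose by 2.01 in C57BL/6 and did not pass in C3H/HeJ (0.30, SE 0.20), and the response difference was 1.72 (SE 0.29, adjusted p = 0.0142). C1qc, a chain of the complement starter C1q that tissue macrophages make, went from 8.16 and 8.52 to 11.07 and 11.20 in C57BL/6 and from 8.05 and 8.39 to 9.52 and 9.54 in C3H/HeJ, from overlapping controls. It rose in both strains, by 2.80 and 1.31, with a response difference of 1.49 (SE 0.30, adjusted p = 0.0477). The genes for the other chains of C1q had response differences of 1.11 for C1qa (adjusted p = 0.101) and 1.55 for C1qb (adjusted p = 0.107), which did not pass.

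Ccr1, a chemokine receptor of monocytes and neutrophils, and Ccl9, which encodes a ligand of that receptor, were both called. Ccr1 read 6.02 and 5.91 in C57BL/6 controls and 8.67 and 8.27 at 3 weeks, against 6.56 and 6.55 in controls and 7.60 and 7.39 at 3 weeks in C3H/HeJ, again without overlap of the 4 groups. It rose by 2.50 and 0.94, and its response difference was 1.56 (SE 0.30, adjusted p = 0.0372). Ccl9 rose by 2.64 in C57BL/6 and 1.67 in C3H/HeJ from controls that overlapped, and its response difference of 0.97 (SE 0.20, adjusted p = 0.0450) was the smallest of the 27; the second probe set of the gene gave 0.59 and was not called. Ccl2, the ligand that draws monocytes through another receptor, had a response difference of 1.73 with an SE of 0.61 that did not pass (adjusted p = 0.192), and its control pools read 5.61 and 4.51 in C57BL/6 and 5.47 and 5.98 in C3H/HeJ.

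Lgmn, a lysosomal protease, read 9.04 and 9.0 in C57BL/6 controls, 11.07 and 10.64 at 3 weeks, 9.67 and 9.63 in C3H/HeJ controls and 10.36 and 10.25 at 3 weeks. As with Gpnmb, C57BL/6 started below C3H/HeJ and ended above it, with a response difference of 1.18 (SE 0.19, adjusted p = 0.0101). Pstpip2, an adaptor of myeloid cells, had the largest response difference on the higher side, 2.15 (SE 0.41, adjusted p = 0.0372), but on dim and uneven signals: 5.79 and 5.43 in controls and 6.79 and 6.69 at 3 weeks in C57BL/6, and 6.60 and 6.54 in controls and 6.12 and 4.96 at 3 weeks in C3H/HeJ. The C3H/HeJ female pool at 3 weeks lay more than 1 log2 unit below the male pool and under 5.87, the level at which dim probe sets were left out. Without that array the difference was 1.57, and an offset of 64 in place of 16 gave 1.24.

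**Figure D2:**
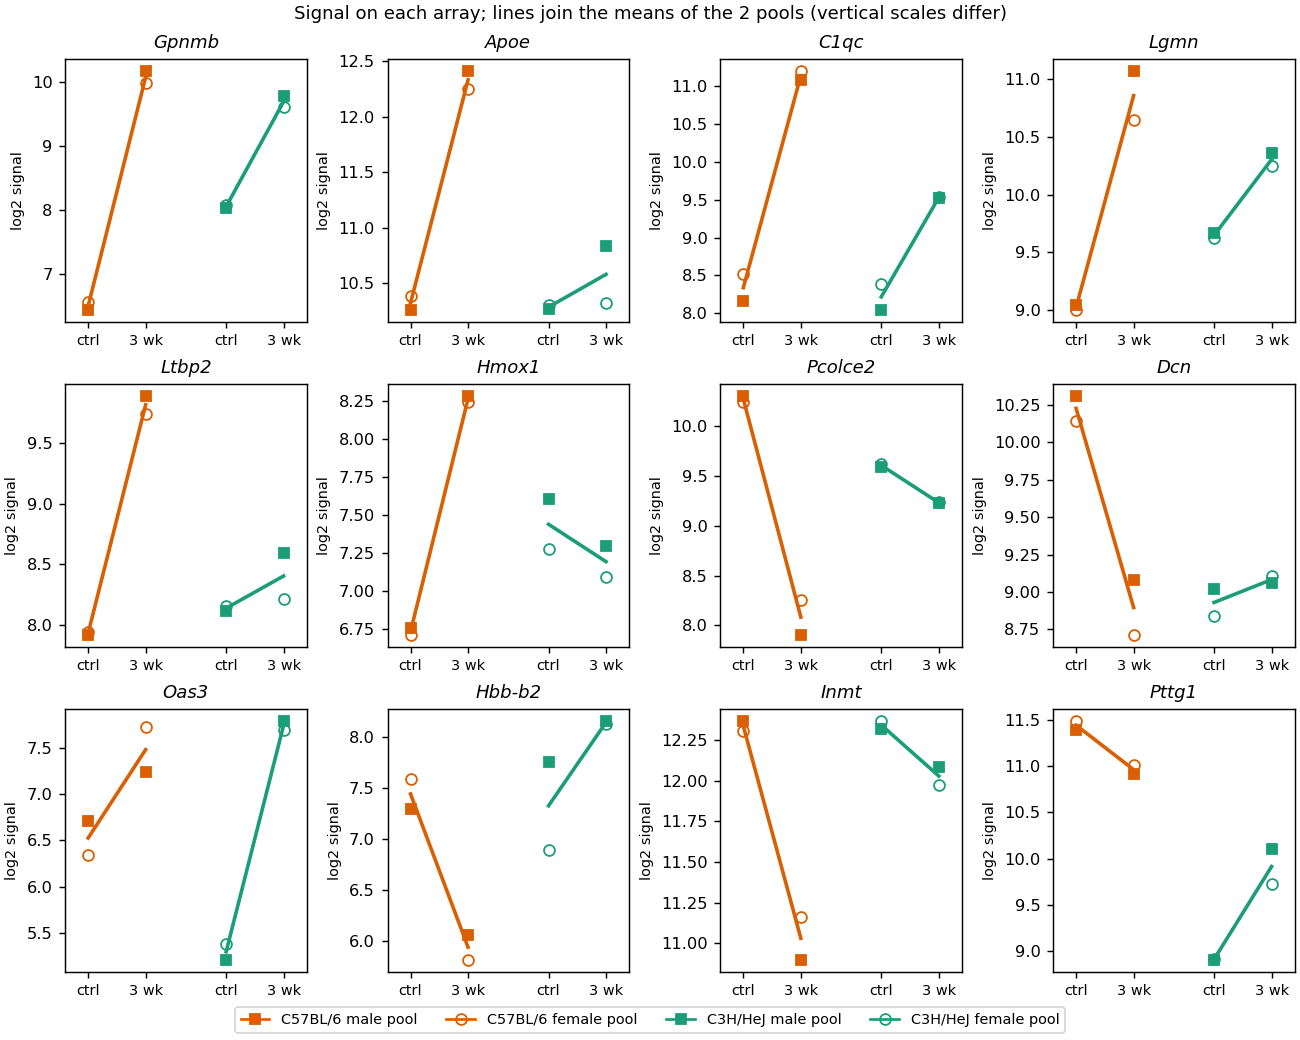
Log2 signal of 12 of the called genes on each of the 8 arrays, with C57BL/6 in orange and C3H/HeJ in green, males as filled squares and females as open circles, and lines joining the means of 2 pools. In the panels of Apoe, C1qc and Ltbp2 the strains start together and separate at 3 weeks, in Dcn and Oas3 they start apart and meet, and in Pttg1 they approach each other; vertical scales differ between panels.

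Of 36 macrophage markers 29 had a response difference above 0 (against 53.6% of all genes), with a median of 0.55 where all genes had 0.04; the medians of the changes were 1.19 in C57BL/6 and 0.53 in C3H/HeJ. At an unadjusted p under 0.05 there were 18 above and 1 below (8.64% and 6.08% of all genes), and Gpnmb and Apoe were called. Among those that were not, Ms4a6d, a membrane protein of macrophages, had 1.68 (adjusted p = 0.0633) and Fcer1g, the signalling chain of Fc receptors, 1.25 (adjusted p = 0.0697). Trem2 had 0.65 (adjusted p = 0.489), and the elastase Mmp12 had 0.05 (SE 0.67) beside its rises of more than 3 in each strain. The control pools of Trem2 (4.51 to 4.79) and Mmp12 (4.49 to 5.73) lay under 5.87, the level at which dim probe sets were left out. Of the 7 markers below 0, the 1 at that p was Marco, the scavenger receptor of resident alveolar macrophages, at -1.28 (adjusted p = 0.0932; named here after its value was seen). The summed signal of the 36 markers, on the linear scale after quantile normalization, was 25174 and 26087 in the C57BL/6 control pools and 46351 and 47619 at 3 weeks, against 28251 and 27100 in controls and 38039 and 32777 at 3 weeks in C3H/HeJ. In whole lung, more cells of a type and more RNA per cell cannot be told apart, here or for any other list.

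Matrix genes differed in both directions. Ltbp2, a protein of elastic microfibrils, read 7.92 and 7.95 in C57BL/6 controls and 9.89 and 9.74 at 3 weeks, against 8.12 and 8.16 in controls and 8.60 and 8.21 at 3 weeks in C3H/HeJ. All C3H/HeJ pools lay between 8.12 and 8.60, and the C57BL/6 pools at 3 weeks lay more than 1 log2 unit above them. Ltbp2 rose in C57BL/6 by 1.88 and did not pass in C3H/HeJ (0.26, SE 0.18), with a response difference of 1.61 (SE 0.26, adjusted p = 0.0101). Pcolce2 and Dcn went the other way.

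Pcolce2, an enhancer of the enzyme that trims procollagen, read 10.30 and 10.24 in C57BL/6 controls, 7.91 and 8.26 at 3 weeks, 9.59 and 9.62 in C3H/HeJ controls and 9.22 and 9.24 at 3 weeks. The C57BL/6 pools moved from the top of the 8 arrays to the bottom. It fell by 2.19 in C57BL/6 and did not pass in C3H/HeJ (-0.37, SE 0.18), and the response difference was -1.81 (SE 0.25, adjusted p = 0.00253). Dcn, the small proteoglycan decorin that coats collagen fibrils, read 10.31 and 10.14 in C57BL/6 controls and 9.08 and 8.71 at 3 weeks. In C3H/HeJ it read 9.02 and 8.84 in controls and 9.06 and 9.10 at 3 weeks, so the C57BL/6 pools at 3 weeks overlapped the C3H/HeJ range. Dcn fell by 1.33 in C57BL/6, and its response difference was -1.48 (SE 0.30, adjusted p = 0.0477).

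The cross-linking enzyme gene Lox (1.34, adjusted p = 0.0688) and the growth factor gene Ccn2 (1.06, adjusted p = 0.0697) lay just beyond the threshold. So did the protease inhibitor genes Timp1 (1.69, adjusted p = 0.0623) and Serpina3n (1.70, adjusted p = 0.0697) and the activin antagonist gene Fst (1.85, adjusted p = 0.0773). All were higher in the C57BL/6 response. In total 167 genes had an adjusted p under 0.10, the 27 called genes included. The difference of Lox was 2.23 between the male and 0.46 between the female pools, and that of Fst 2.45 and 1.25. Timp1 read 7.12 and 6.86 in controls and 10.72 and 9.98 at 3 weeks in C57BL/6, and 6.95 and 7.12 in controls and 8.99 and 8.42 at 3 weeks in C3H/HeJ. The Timp1 controls overlapped, and both C57BL/6 pools at 3 weeks exceeded both C3H/HeJ pools. Other matrix genes with a strong rise in each strain had smaller differences: Tnc 1.22 (SE 0.50, adjusted p = 0.257), Fn1 0.72 (adjusted p = 0.190) and Eln 0.46 (adjusted p = 0.664). Col1a1, the main fibrillar collagen chain, had 0.03 (95% interval -0.66 to 0.72) with rises of 1.28 and 1.25, and Col3a1 had -0.22 (SE 0.25). The growth factor gene Tgfb1 had 0.17 (SE 0.36) and passed in neither strain.

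Over the 53 genes of collagens and matrix the median response difference was 0.37, with 15 above and 3 below 0 at an unadjusted p under 0.05 (8.64% and 6.08% of all genes) and 1 called on each side, Ltbp2 and Dcn. Matrix proteases and their inhibitors had a median of 0.28 (8 above and 1 below of 28), and the TGF-beta and BMP pathway 0.07 (5 and 3 of 45, with Ltbp2 called here too). Without the C3H/HeJ male control the medians of these lists were 0.24, 0.17 and -0.05, and without the C3H/HeJ male array at 3 weeks that of the TGF-beta and BMP list was -0.09. The median of the matrix list was 0.60 for the C57BL/6 change and 0.30 for the C3H/HeJ change, with 26 genes called higher and 3 lower in C57BL/6 and 11 higher in C3H/HeJ. Of all 9079 genes 644 were called higher and 542 lower in C57BL/6, and 158 higher in C3H/HeJ.

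Among genes of stress and transcription, Hmox1, which encodes the enzyme that breaks down haem, read 6.75 and 6.71 in C57BL/6 controls and 8.29 and 8.25 at 3 weeks, against 7.60 and 7.28 in controls and 7.30 and 7.09 at 3 weeks in C3H/HeJ. C57BL/6 moved from below to above every C3H/HeJ pool. The C3H/HeJ pools at the 2 times overlapped, and the response difference was 1.78 (SE 0.35, adjusted p = 0.0417). Myc, a transcription factor of growth, read 5.39 and 5.54 in controls and 7.04 and 6.93 at 3 weeks in C57BL/6 and 5.97 and 6.32 in controls and 5.88 and 6.03 at 3 weeks in C3H/HeJ; with controls this dim the value moved with the offset, from 1.70 to 1.03 at 64. Lower in the C57BL/6 response were Klf5 (-1.25, SE 0.23, adjusted p = 0.0281), a transcription factor of epithelium, Polr2a (-1.26, SE 0.25, adjusted p = 0.0466), the largest subunit of RNA polymerase II, and Bcl9l (-1.10, SE 0.22, adjusted p = 0.0417), a coactivator of beta-catenin. Klf5 lay at 7.86 and 7.92 in C57BL/6 at 3 weeks, below the 6 other pools, which lay between 8.41 and 9.08. Polr2a read 9.64 and 9.38 in controls and 8.69 and 9.05 at 3 weeks in C57BL/6, and 9.02 and 9.28 in controls and 9.73 and 9.79 at 3 weeks in C3H/HeJ. Bcl9l read 8.43 and 8.35 in controls and 7.73 and 7.62 at 3 weeks in C57BL/6, and 7.79 and 7.97 in controls and 8.15 and 8.38 at 3 weeks in C3H/HeJ. For Bcl9l the C57BL/6 pools at 3 weeks lay below all others, while for Polr2a the female pool at 3 weeks overlapped the C3H/HeJ controls. The second probe sets of Klf5 and Polr2a gave -0.64 and -0.91. The metal-binding Mt2 (1.61, adjusted p = 0.0903) and the stress gene Gadd45g (1.92, adjusted p = 0.0698) were above 0 and did not pass, and the p53 target Cdkn1a, which arrests the cell cycle, had 0.59 (adjusted p = 0.350) beside rises of 2.51 and 1.92.

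Oas3, an oligoadenylate synthetase that senses viral RNA and is induced by interferon, rose further in C3H/HeJ than in C57BL/6. It read 6.71 and 6.34 in C57BL/6 controls and 7.24 and 7.73 at 3 weeks, and 5.21 and 5.38 in C3H/HeJ controls and 7.80 and 7.70 at 3 weeks. The C3H/HeJ controls were the lowest of the 8 arrays and lay under the level of 5.87, and at 3 weeks the strains overlapped. Oas3 rose by 2.45 in C3H/HeJ, from this dim level, and 0.96 in C57BL/6, with a response difference of -1.50 (SE 0.29, adjusted p = 0.0372) that was -2.07 between the male and -0.93 between the female pools. An offset of 64 gave -0.90. Isg20, an exonuclease of the antiviral response, had -1.20 (adjusted p = 0.0824) and Rsad2, which encodes viperin, -1.11 (adjusted p = 0.250), both without passing. The chemokine gene Cxcl10, also induced by interferon, had 0.62 (adjusted p = 0.561), and Ifit1 had 0.03 (95% interval -0.68 to 0.75) with rises of 1.43 and 1.40. Of the 41 genes of the list 3 were above and 4 below 0 at an unadjusted p under 0.05, where 8.64% and 6.08% of all genes were; Oas3 was called. Their median of 0.09 was -0.04 without the C57BL/6 female array at 3 weeks, 0.28 with the deposited scaling and 0.31 with arrays scaled to 1 median.

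The promoters of Ifit1, Oas3 and Rsad2 are shown because interferon induces all 3 genes, while their response differences ran from -1.50 to 0.03; the differences between these genes were not tested. Each run covers the 150 bases before the transcription start in RefSeq (GRCm38.p6), read 5′ to 3′ on the strand of the gene, with capitals at matches to GAAANNGAAA on either strand, the core of the interferon-stimulated response element. Ifit1 lies on the plus strand at chr19:34640739-34640888, Oas3 on the minus strand at chr5:120777660-120777809 and Rsad2 on the minus strand at chr12:26456453-26456602.
Ifit1: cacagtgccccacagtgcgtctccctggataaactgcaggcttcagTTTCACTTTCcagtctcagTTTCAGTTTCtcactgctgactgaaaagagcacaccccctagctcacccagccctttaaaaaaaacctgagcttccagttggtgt
Oas3: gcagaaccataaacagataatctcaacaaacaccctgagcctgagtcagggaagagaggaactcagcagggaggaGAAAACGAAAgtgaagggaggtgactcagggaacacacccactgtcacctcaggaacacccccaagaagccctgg
Rsad2: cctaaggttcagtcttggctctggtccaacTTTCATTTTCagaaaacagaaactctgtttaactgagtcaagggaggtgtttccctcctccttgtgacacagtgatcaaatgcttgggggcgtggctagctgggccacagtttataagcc
The matches begin 104 and 85 bases before the start in Ifit1, 75 in Oas3 and 120 in Rsad2. In windows of 250 bases before to 50 bases after the start the letters occurred in 1131 of 32851 RefSeq promoters (3.44%). Of the 33 interferon-stimulated genes that had a window, 16 (48.5%) had a match in any of their windows. The former share counts promoters and the latter counts genes, so their units differ. A match describes the letters and not a bound site, and the array data do not bear on binding.

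Hbb-b2, a beta globin chain, had the largest response difference of all, -2.32 (SE 0.37, adjusted p = 0.0101). It read 7.29 and 7.59 in C57BL/6 controls, 6.06 and 5.82 at 3 weeks, 7.76 and 6.89 in C3H/HeJ controls and 8.16 and 8.13 at 3 weeks. The C57BL/6 pools at 3 weeks lay below the 6 others, while the C3H/HeJ female control lay clearly below its male control, and the difference was -1.63 between males and -3.01 between females. Hbb-b2 fell by 1.50 in C57BL/6 and did not pass in C3H/HeJ (0.82, adjusted p = 0.119). Its probe set can cross-hybridise with other globin copies, and the strains carry different forms of the beta globin locus.

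The red cell list lay on the same side: 11 of 12 genes, Hbb-b2 included, were below 0 (46.4% of all genes were), 8 of them at an unadjusted p under 0.05 (6.08% of all genes), and the median was -0.93. Alas2, the entry enzyme of haem synthesis in red cell precursors, had -2.04 (adjusted p = 0.0704), the anion exchanger gene Slc4a1 -1.98 (adjusted p = 0.0704) and the ferrochelatase gene Fech -1.22 (adjusted p = 0.0824), none of which passed. Alas2 read 10.75 and 10.95 in controls and 9.42 and 9.83 at 3 weeks in C57BL/6, and 10.77 and 9.59 in controls and 11.20 and 10.78 at 3 weeks in C3H/HeJ, where the female control stood apart. The summed signal of the list went from 5811 and 5358 to 3064 and 3614 in C57BL/6 and from 4907 and 3628 to 6451 and 5587 in C3H/HeJ. The median change was -0.56 in C57BL/6 and 0.57 in C3H/HeJ. How much blood the lungs held was not measured here, and its part in these values was not tested.

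Among the other genes with a lower response difference, Tppp3 was on the airway list and Cd93 on the endothelial list, and Inmt, Slc7a10 and Cmtm8 were on none. Inmt, a methyltransferase abundant in lung, read 12.37 and 12.30 in C57BL/6 controls, 10.90 and 11.16 at 3 weeks, 12.31 and 12.37 in C3H/HeJ controls and 12.08 and 11.97 at 3 weeks. Controls of the strains overlapped, and the C57BL/6 pools at 3 weeks lay below all others. It fell by 1.30 in C57BL/6 and did not pass in C3H/HeJ (-0.31, adjusted p = 0.0923), with a response difference of -0.99 (SE 0.13, adjusted p = 0.00253). Tppp3, a tubulin-binding protein of ciliated cells, fell in both strains, by 1.68 in C57BL/6 and 0.63 in C3H/HeJ. It read 10.69 and 10.80 in C57BL/6 controls, 8.99 and 9.15 at 3 weeks, 10.39 and 10.30 in C3H/HeJ controls and 9.85 and 9.59 at 3 weeks, with the C57BL/6 pools the highest before and the lowest after. Its response difference was -1.05 (SE 0.18, adjusted p = 0.0159), or -0.68 with arrays scaled to 1 median. Slc7a10, a transporter of small neutral amino acids, read 8.56 and 8.88 in C57BL/6 controls and 6.72 and 7.17 at 3 weeks, with all C3H/HeJ pools between 8.21 and 8.64, and had -1.40 (SE 0.25, adjusted p = 0.0216).

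Cmtm8, a membrane protein of the MARVEL family, went from 9.27 and 9.26 to 7.92 and 8.08 in C57BL/6 and stayed within 8.13 to 8.33 on the 4 C3H/HeJ arrays (-1.15, SE 0.22, adjusted p = 0.0372). Cd93, a receptor of endothelium and myeloid cells, fell by 0.55 in C57BL/6 and rose by 0.49 in C3H/HeJ. It read 10.82 and 10.81 in controls and 10.20 and 10.33 at 3 weeks in C57BL/6, and 10.22 and 10.45 in controls and 10.62 and 11.05 at 3 weeks in C3H/HeJ, and the response difference was -1.04 (SE 0.18, adjusted p = 0.0198). That value was -0.67 with the deposited scaling, -0.64 with arrays scaled to 1 median and -0.57 with the second probe set, in none of which it was called. The second probe set showed no fall in C57BL/6 (0.05, SE 0.23).

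Endothelial markers had 36 of 45 genes below 0 and a median of -0.43, with 1 above and 17 below at an unadjusted p under 0.05; of all genes 46.4% were below 0, and at that p 8.64% were above and 6.08% below. Cd93 was called. Among those not called were Cyp1a1 (-1.41, adjusted p = 0.0704), an oxidase of foreign compounds, and Hpgd (-0.93, adjusted p = 0.0698), the enzyme that breaks down prostaglandins. The TGF-beta co-receptor gene Eng (-0.88, adjusted p = 0.0862) was not called either. The difference of Eng was -1.40 between the male and -0.36 between the female pools, and it kept its sign in 21 of 22 other settings. Type 2 alveolar genes had 27 of 31 below 0 and a median of -0.36 (1 above and 13 below), and none was called; the surfactant gene Sftpa1 had -0.58 (adjusted p = 0.0698) and the transcription factor gene Etv5 -1.40 (adjusted p = 0.0772). Their median change was -0.42 in C57BL/6 and -0.01 in C3H/HeJ, and that of the endothelial genes -0.55 and -0.16. Both medians depended on the scaling: with values as deposited they were -0.09 for type 2 and -0.10 for endothelial genes, and with arrays scaled to 1 median -0.06 and -0.07, where all genes stood at 0.16 and 0.20. Without the C3H/HeJ female array at 3 weeks the endothelial median was -0.22.

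Adipocyte and muscle markers, which whole lung can hold from tissue at its root, also lay mostly below 0, in 16 of 18 and 27 of 36 genes. Of all genes 46.4% were below 0, and at an unadjusted p under 0.05 8.64% were above and 6.08% below. The adipocyte list had a median of -0.35 (0 above and 6 below of 18 at an unadjusted p under 0.05), with the carbonic anhydrase gene Car3 at -1.84 (adjusted p = 0.0697), and went in sum from 13680 and 16439 to 11525 and 12897 in C57BL/6 and from 14002 and 14814 to 15445 and 13774 in C3H/HeJ. Its median was -0.17 without the C3H/HeJ male array at 3 weeks, -0.19 with the deposited scaling and -0.14 with arrays scaled to 1 median. The heart and skeletal muscle list had -0.38 (0 above and 4 below of 36, or 11.1% against 14.7% of all genes). Its median was -0.62 between the male and -0.08 between the female pools. Its sums went from 11115 and 11590 to 5050 and 5775 in C57BL/6 and from 10575 and 12179 to 8303 and 6285 in C3H/HeJ. Without the C3H/HeJ male array at 3 weeks its median was -0.13 and without the C3H/HeJ male control -0.21. No marker of these lists was at 0 on any of the arrays, and the lowest single value was 5.11 (linear scale). The part of adjoining tissue in the response difference was not tested.

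**Figure D3:**
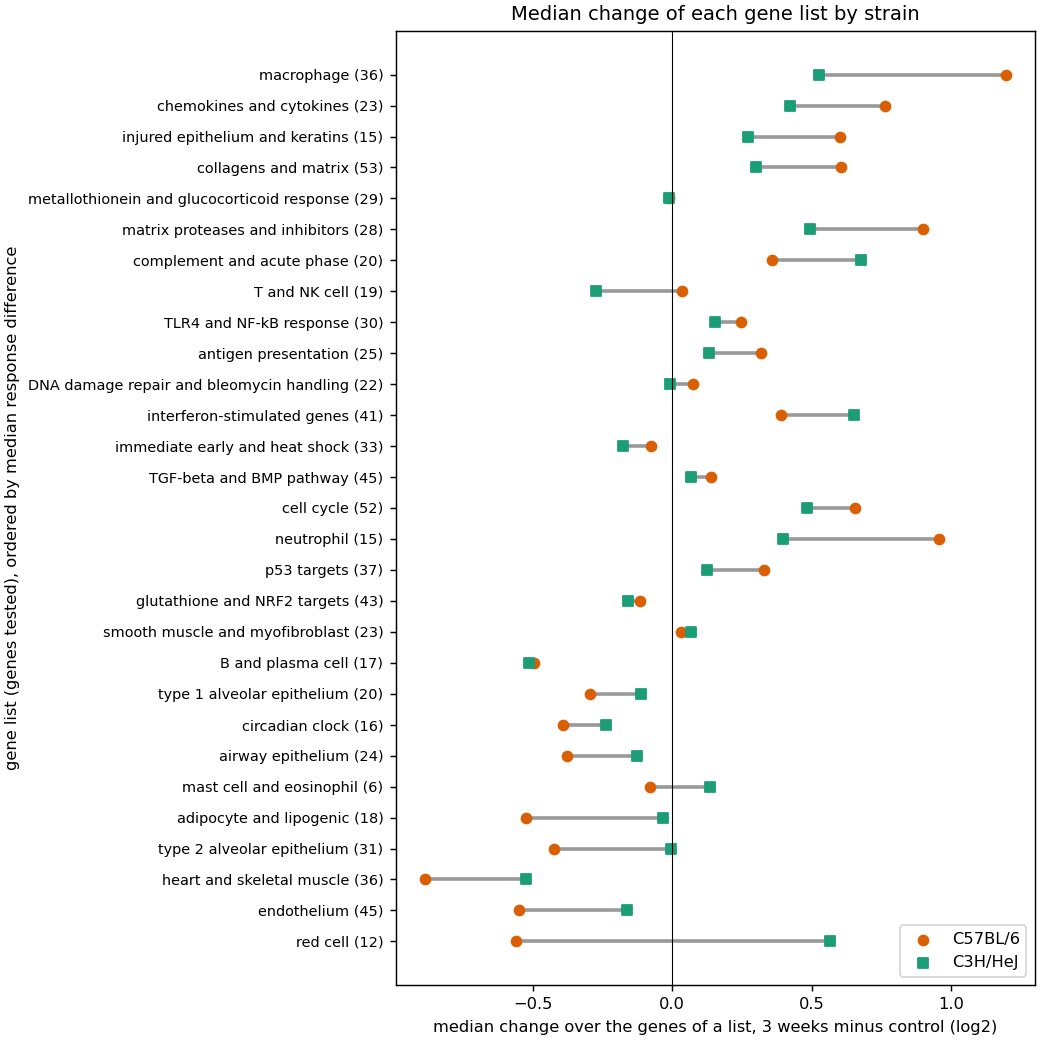
Median change from control to 3 weeks (log2) over the genes of each of 29 lists, C57BL/6 as orange circles and C3H/HeJ as green squares, ordered by the median response difference with the highest at the top; the number of genes tested is in brackets. The gap is widest for red cell genes, whose medians lie on either side of 0, and macrophage genes lie farthest to the right in C57BL/6; the 2 marks of the metallothionein list coincide.

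In 9 of the 27 genes the control lungs of the strains already differed (2.53% of all genes did), in 21 the lungs at 3 weeks did (6.40%), and 3 of these differed at both times. The response difference is the strain difference at 3 weeks minus that in controls. Genes chosen for a large response difference must therefore differ between the strains in controls, at 3 weeks or at both times. The shares of all genes are thus not a like baseline, and the counts only describe the 27 genes. Armcx4, of the armadillo family on the X chromosome, read 5.91 and 6.07 in C57BL/6 controls and 7.66 and 7.99 at 3 weeks, while the 4 C3H/HeJ pools lay between 7.63 and 7.94. A control difference of -1.84 thus became 0.10, and the response difference was 1.94 (SE 0.22, adjusted p = 0.00117), called in 21 of 22 other settings. Ajuba, a LIM adaptor at cell junctions, read 6.77 and 7.03 in C57BL/6 controls and 8.44 and 8.0 at 3 weeks, against 8.76 and 8.28 in controls and 8.14 and 7.94 at 3 weeks in C3H/HeJ. Its strain difference was -1.62 in controls and 0.18 at 3 weeks, with a response difference of 1.80 (SE 0.32, adjusted p = 0.0216). In both genes C57BL/6 rose to near the level of the C3H/HeJ controls.

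Pttg1, which encodes securin, the inhibitor of the enzyme that parts sister chromatids, read 11.39 and 11.49 in C57BL/6 controls, 10.91 and 11.01 at 3 weeks, 8.91 and 8.92 in C3H/HeJ controls and 10.10 and 9.73 at 3 weeks. C57BL/6 stood above C3H/HeJ at both times. Pttg1 fell by 0.48 in C57BL/6 and rose by 1.0 in C3H/HeJ, so that the strain difference of 2.53 in controls was 1.05 at 3 weeks (response difference -1.48, SE 0.20, adjusted p = 0.00253); its second probe set gave -1.18. Pdzrn3, a ubiquitin ligase, read 7.06 and 7.22 in controls and 8.48 and 8.42 at 3 weeks in C57BL/6, and 8.07 and 7.88 in controls and 7.47 and 7.64 at 3 weeks in C3H/HeJ, crossing between control and 3 weeks (1.73, SE 0.26, adjusted p = 0.00632). Scrib, a scaffold of cell polarity, fell by 0.99 in C3H/HeJ and did not pass in C57BL/6 (0.53, adjusted p = 0.116), where its control pools read 6.41 and 7.16 and its pools at 3 weeks 7.15 and 7.49, against 7.55 and 7.57 and then 6.82 and 6.33 in C3H/HeJ; the response difference was 1.52 (SE 0.30, adjusted p = 0.0417). In 18 of the 27 genes the strain difference was larger at 3 weeks than in controls and in 9 larger in controls, where 44.4% of all genes had the larger difference in controls. This split describes the 27 chosen genes and was not tested.

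**Figure D4:**
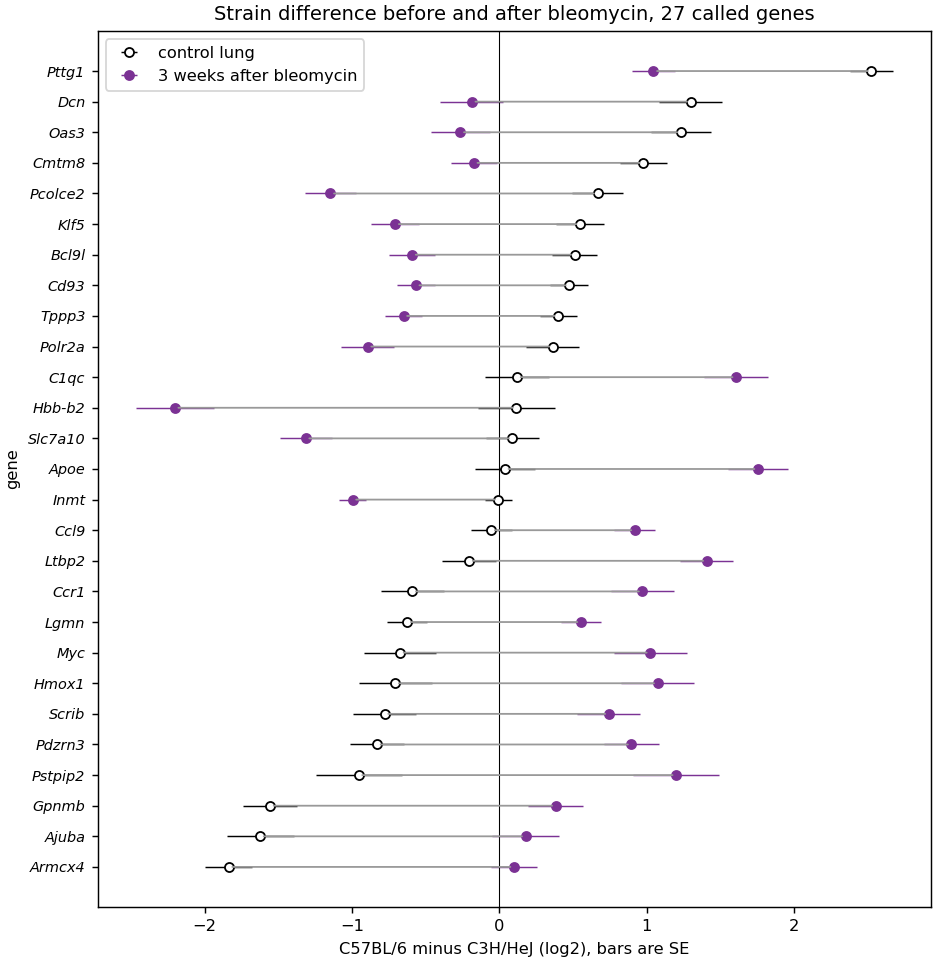
C57BL/6 minus C3H/HeJ (log2) in control lung (open circles) and at 3 weeks (filled circles) for the 27 called genes, with bars of 1 standard error and a grey line between the 2 times, whose length is the response difference. Pttg1 is the highest and Armcx4 the lowest in control lung, and Hbb-b2 is the lowest at 3 weeks.

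A/J, the other inbred strain of the series, gave a change on 4 arrays at 3 weeks against 2 controls (2 male and 2 female pools, at 80 to 125 mg/kg). In 24 of the 27 genes, all but Oas3, Pstpip2 and Scrib, the A/J change was nearer to that of C3H/HeJ than to that of C57BL/6 (61.4% of all genes). The 27 were chosen by their difference, and in 24 of them the C57BL/6 change was the larger in size. Any strain with a small change falls nearer to C3H/HeJ in such genes, so the share of all genes is not a like baseline. The median A/J change was 0.39 over the 14 genes with a higher response difference and -0.06 over the 13 with a lower one. A/J passed in 5 of the 27, against 1.04% of all genes: Gpnmb (1.90), Ccr1 (1.14), Ccl9 (1.01), Pttg1 (0.85) and Tppp3 (-0.56). Pttg1 thus rose in A/J as in C3H/HeJ. Oas3 did not pass in A/J (0.67, adjusted p = 0.0920).

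**Figure D5:**
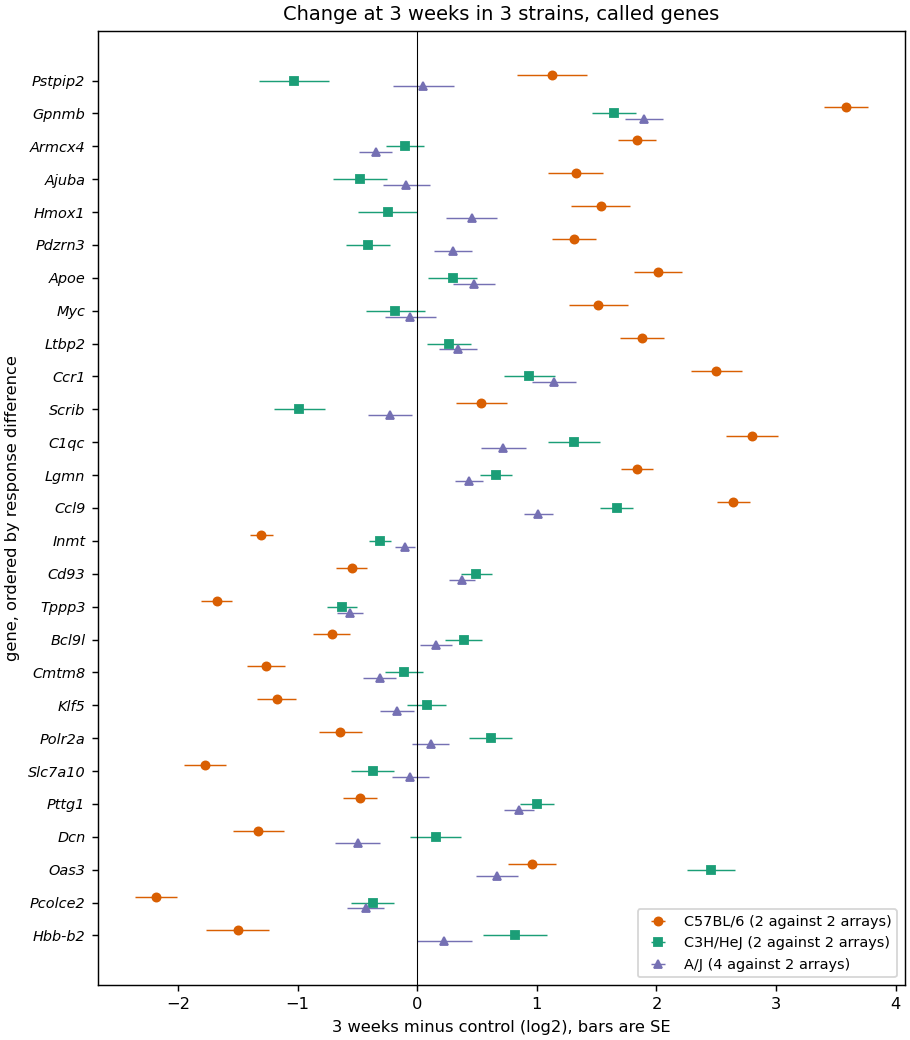
Change from control to 3 weeks (log2, bars are 1 standard error) of the 27 called genes in C57BL/6 (orange circles), C3H/HeJ (green squares) and A/J (purple triangles). In 24 genes the A/J triangle is nearer to the C3H/HeJ square; for Gpnmb A/J stood at 1.90, between 1.64 and 3.58.

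At 6 weeks C57BL/6 had a single array, of females, so only values can be given, against the same female controls. The C3H/HeJ female array at 6 weeks had a Gapdh 3′/5′ ratio of 2.08, the highest of the 21 arrays. The C57BL/6 array had 0.80, and the part of RNA quality in the values below was not tested. Gpnmb was 3.49 above control in C57BL/6 and 1.28 in C3H/HeJ, Apoe 1.55 and -0.23, C1qc 2.25 and 0.31, and Ltbp2 1.57 and 0.51. Pcolce2 was at -1.39 and -0.07, and Hbb-b2 at -1.87 and 0.62. For Dcn the values were -0.10 and -0.35 and for Klf5 -0.26 and -0.36, near each other where those at 3 weeks lay apart. In moribund C57BL/6 mice, for which no time is given, the mean over 1 male and 1 female pool was 3.65 above the controls for Gpnmb, 1.64 for Hmox1 and 1.84 for Myc, and -2.23 for Pcolce2. These values share their controls with the 3 week comparison.

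Other genes changed strongly in both strains. A total of 69 genes passed in each strain with a 2-fold change in the same direction, 56 of them up and 13 down. Of the 69, 56 had the larger change in C57BL/6, with median sizes of 1.73 and 1.36 (0.24 and 0.20 over all genes). A called response difference was found in 3, Gpnmb, C1qc and Ccl9 (0.297% of all genes). The 69 genes were chosen by the same sizes that are compared here, so these values only describe them. The smallest response differences were those of Igfbp5 (0.01, 95% interval -0.61 to 0.63), Npy (0.02, -0.71 to 0.75), S100a9 (0.02, -1.03 to 1.07), Col1a1 and Ifit1. Igfbp5, a binder of insulin-like growth factors, fell by 1.10 and 1.11, and the neuropeptide gene Npy rose by 1.74 and 1.72. The Npy controls read 4.67 and 4.79 in C57BL/6 and 5.08 and 4.78 in C3H/HeJ. They lay under the level of 5.87 at which dim probe sets were left out, so the size of its rises is uncertain. The neutrophil gene S100a9 rose by 1.44 and 1.42, with an interval that allows a 2-fold difference either way. Psrc1, a spindle gene, rose by 2.79 and 2.73 (0.06, SE 0.41), from controls mostly under that level (5.18 and 5.73 in C57BL/6, 6.01 and 4.86 in C3H/HeJ). The intervals leave room for differences of up to about 1 log2 unit, so these genes are not shown to respond alike.

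For the counts at an unadjusted p under 0.05 that follow, the shares of all genes were 8.64% above 0 and 6.08% below. Of 52 cell cycle genes 4 were above and 0 below 0 (median 0.05, with changes of 0.65 and 0.48), of 37 p53 targets 5 and 2, or 18.9% against 14.7% of all genes (median 0.03), and of 22 genes of DNA repair and bleomycin handling 0 and 1, Abcb1a (-0.79, adjusted p = 0.117). Blmh, the hydrolase that inactivates bleomycin, had 0.44 (SE 0.26, adjusted p = 0.454) and passed in neither strain. None of the genes of these lists was called, and Abcb1a kept its sign in 21 of 22 other settings. Without the C57BL/6 female array at 3 weeks the cell cycle and p53 medians were -0.03 and -0.12. Of 30 genes of the Toll-like receptor 4 and NF-kB response 3 were above and 3 below 0 (20% together, against 14.7%), none called; Tlr4 itself had -0.07 (SE 0.34), read by a probe set that measures its RNA and not the point mutation, and the acute phase gene Saa3 had 1.10 (SE 0.45, adjusted p = 0.255) beside rises of 3.71 and 2.61. Chemokines and cytokines had a median of 0.39 (4 above and 0 below of 23, with Ccl9 called), injured epithelium and keratins 0.37 (5 and 1 of 15), complement and acute phase 0.28 (7 and 4 of 20, with C1qc called, and with a larger median change in C3H/HeJ, 0.67, than in C57BL/6, 0.36), and metallothionein and glucocorticoid genes 0.29 (5 and 1 of 29). Leaving out 1 array brought the chemokine median to 0.23 (without the C3H/HeJ female array at 3 weeks), the injured epithelium median to 0.21 and the metallothionein median to 0.08 (without the C57BL/6 male array at 3 weeks).

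Among lymphocyte genes Cd3d, a chain of the T cell receptor complex, had 2.08 (adjusted p = 0.0772) and Lat, an adaptor of that receptor, 1.38 (adjusted p = 0.0772); neither passed, though both fell in C3H/HeJ, by 1.52 and 1.17. Cd3d read 6.72 and 6.86 in C3H/HeJ controls and 5.67 and 4.87 at 3 weeks, the latter under the dim level of 5.87. Lat read 5.05 in the male and 6.11 in the female C3H/HeJ pool at 3 weeks. Its response difference was 2.12 between the male and 0.63 between the female pools. The 19 T and NK cell genes had 2 above and 0 below 0, and the 17 B and plasma cell genes 4 and 2, with Igha at 1.31 (adjusted p = 0.108) after a control difference of -2.73. Neutrophil genes had 2 above and 1 below of 15, airway genes 5 and 6 of 24 with Tppp3 called, antigen presentation genes 3 and 1 of 25, smooth muscle and myofibroblast genes 4 and 1 of 23, type 1 alveolar genes 1 and 5 of 20, glutathione and NRF2 genes 2 and 11 of 43 with Hmox1 called, immediate early and heat shock genes 5 and 3 of 33 with Myc called, clock genes 1 and 0 of 16, and mast cell and eosinophil genes 0 and 0 of 6. The medians of the type 1, smooth muscle, clock and NRF2 lists, all below 0, were above 0 with the deposited scaling and with arrays scaled to 1 median, and that of the B and plasma cell list with the latter.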

How the data were processed

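Arrays carried total RNA of whole right lung, extracted with Trizol and pooled, per the labels' protocols. The authors deposited 1 intensity per probe set and array on a linear scale, in a table of 22690 probe sets; for its probe summary, background correction and scaling, no method is given in the sources used here. The 64 control probe sets were left out. Of the remaining 22626, 20380 carried exactly 1 symbol (20359 matched to the gene table), 691 several and 1555 none. Values were quantile normalized and turned into log2(value + 16), so folds of dim genes are understated. The dimmest 33.3 percent of probe sets by overall mean were left out, which kept 15084 (1223 without exactly 1 symbol), and the brightest probe set of a gene was used.

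All 21 arrays were fitted together, with group means and sex as terms, with limma 3.58.1 in R 4.3.3 (lmFit, contrasts.fit, eBayes with trend; 10 residual degrees of freedom, 16.9 after shrinkage). Tests were two-sided, with Benjamini-Hochberg adjustment over the 9079 genes; a call is an adjusted p under 0.05. The fit was tested on simulated data. Named were the 15 called genes with the largest differences in each direction (all 27), the members with the smallest p in each list (at most 4), fixed genes (Saa3, Gpnmb, Timp1, Trem2, Mmp12, Tnc, Cdkn1a, Fn1, Col1a1, Col3a1, Tgfb1, Blmh, Tlr4, Oas3, Cxcl10, Psrc1, Eln, and Spp1, which was not tested), called genes that moved oppositely in the strains, and the 5 most equal genes of those called at 2-fold in both. The genes, the 29 lists and the comparison were chosen with earlier results of these data known. Gene lists got counts and medians and no test. The alternatives were other scalings, offsets of 1 and 64, other dim filters, no sex term, only the 8 arrays, second probe sets, array weights, no variance trend, an adjusted p under 0.10, fewer arrays, and the Gapdh ratio as a covariate. Promoter sequences came from RefSeq's table.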

Additional observations from a re-analysis of the deposited data

Results flagged for a closer look

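The response of C57BL/6 and C3H/HeJ differed by the test of the interaction itself in 27 genes, 0.297% of those tested. The response difference was above 0 for Pstpip2 (2.15), Gpnmb (1.94), Armcx4 (1.94), Ajuba (1.80), Hmox1 (1.78), Pdzrn3 (1.73), Apoe (1.72), Myc (1.70), Ltbp2 (1.61), Ccr1 (1.56), Scrib (1.52), C1qc (1.49), Lgmn (1.18) and Ccl9 (0.97). It was below 0 for Hbb-b2 (-2.32), Pcolce2 (-1.81), Oas3 (-1.50), Dcn (-1.48), Pttg1 (-1.48), Slc7a10 (-1.40), Polr2a (-1.26), Klf5 (-1.25), Cmtm8 (-1.15), Bcl9l (-1.10), Tppp3 (-1.05), Cd93 (-1.04) and Inmt (-0.99).

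Of the 27 genes 3 had 1 of the 4 A/J arrays at 3 weeks far from the other 3: C1qc read 9.17 on the highest array, Klf5 8.86 on the highest and Pstpip2 6.22 on the lowest. By chance about 5 percent of such groups would show an array that far out, if their arrays were alike. The 4 A/J arrays were not alike, as they differed in sex and dose. The array far out was female at 125 mg/kg for C1qc, male at 80 mg/kg for Klf5 and male at 100 mg/kg for Pstpip2.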

How the results depend on the processing

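No paired analysis was possible because the numbers of the arrays follow accession order only and the labels tie no pool of one group to a pool of another, sex aside, which is a term of the model. All 27 called response differences kept their direction in every setting in which they were tested. The genes were chosen by this difference, which made a reversal unlikely. The response difference gave 2 calls with values as deposited, 59 with arrays scaled to 1 median, 132 with array weights, 147 without the moribund and 6 week arrays, 11 with the Gapdh ratio as a covariate and 167 at an adjusted p under 0.10, against 27; without 1 array it gave 5 to 183. The C57BL/6 change gave 387 as deposited and 1845 with array weights, against 1186, and 418 to 1282 without 1 array. The C3H/HeJ change gave 86 as deposited and 425 at an adjusted p under 0.10, against 257, and 68 to 233 without 1 array. The control strain difference gave 95 as deposited, 153 with only the 8 arrays, 713 with array weights and 425 at an adjusted p under 0.10, against 230, and 77 to 312 without 1 array. The 3 week strain difference gave 287 as deposited, 376 with array weights, 353 with the Gapdh ratio and 955 at an adjusted p under 0.10, against 581, and 97 to 530 without 1 array. The A/J change gave 227 with array weights and 164 at an adjusted p under 0.10, against 94. The cause of these shifts was not tested. All other settings gave counts within 1.5 times of these values. With 2 arrays per group, leaving out an array left a lone array assumed to vary like the other groups. Array number, sex confounded with dose, and dim signals near the floor set the limits.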
